A study of Homo sapiens with 2 samples.

Results

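Most aldehyde dehydrogenases oxidise aldehydes to carboxylic acids with NAD or NADP. Here 10 genes of the family were followed in RNA recovered by immunoprecipitation from 293T cells. The 10 were ALDH2, ALDH1B1, ALDH4A1, ALDH18A1, ALDH5A1, ALDH6A1, ALDH7A1, ALDH3A2, ALDH9A1 and ALDH16A1. They were found by their platform annotation symbol and had 22 probe sets. The array holds 54675 probe sets, of which 41091 have exactly 1 symbol, and these stand for 19775 genes. A probe set was called detected when the mean of its 2 array values was above 0.92 (log2), the middle value of those means once control probe sets were left out. All 10 genes passed, with 21 of their 22 probe sets, and on each of the 21 both arrays read above that level. The member probe set nearest above it was one of ALDH6A1, at 1.13 on both arrays. The only member probe set below was another of ALDH6A1, at 0.62 on the miR-941 array and 0.44 on the scrambled array. Over the whole array 13150 of 19775 genes passed, as did 23317 of 41091 probe sets with 1 symbol. The 10 genes were chosen by family name with the level and the difference of each on these same arrays in view. Each value below is therefore a description and carries no test.

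The study asked which mRNAs are found with Ago2, the Argonaute protein that carries microRNAs, once miR-941 is in excess. The 293T line is a human embryonic kidney line with the SV40 large T antigen. One array (the miR-941 array) held RNA from cells transfected with a synthetic miR-941 and precipitated with an Ago2 antibody. The other (the scrambled array) held RNA from cells transfected with a scrambled oligo, which its title calls an Ago2 precipitate while its antibody entry names nonimmune IgG beads. Each oligonucleotide was given at 30 nmol/l. If the antibody entry holds, what was transfected and which antibody was used cannot be told apart. There was 1 array per group, so no difference has a replicate check, no p-value is given, and the number of arrays limits the precision. No array of input RNA was analysed here, so more mRNA in the cells and more recovery in the precipitate cannot be told apart, nor can fewer cells and less RNA per cell.

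Most members work in mitochondria, on aldehydes formed in the metabolism of amino acids, GABA or ethanol. ALDH2 oxidises the acetaldehyde that comes from ethanol, and ALDH1B1 is its close relative in the same compartment. ALDH4A1 and ALDH18A1 stand on opposite sides of one intermediate of proline metabolism. ALDH5A1 ends the breakdown of GABA, ALDH6A1 acts on semialdehydes from valine and thymine, and ALDH7A1 acts on the semialdehyde from lysine. Outside the mitochondria, ALDH3A2 oxidises fatty aldehydes at the endoplasmic reticulum, ALDH9A1 takes part in carnitine synthesis in the cytosol, and ALDH16A1 is one of the least characterised members of the family. ALDH7A1 has cytosolic forms as well and was counted with the mitochondrial members.

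The mature miR-941 of RefSeq (GRCh38.p14) is shown because the oligonucleotide transfected for the miR-941 array is named after it. The sequence of the synthetic oligonucleotide itself is not given in the sources used here. Its seed, bases 2 to 8 from the 5′ end, is in capitals in the mature sequence, and the mature part is in capitals in the hairpin that carries it. The same mature sequence is annotated at 5 gene copies on chromosome 20, and the copy shown is chr20:63919495-63919517 on the plus strand, within the hairpin chr20:63919449-63919520. An mRNA site that pairs with the whole seed would read GCCGGGU, and no transcript sequence was searched for it here.
hsa-miR-941: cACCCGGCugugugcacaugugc
MIR941-1 hairpin: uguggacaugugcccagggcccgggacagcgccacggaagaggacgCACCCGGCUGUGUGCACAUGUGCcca

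No aldehyde dehydrogenase gene differed by 2-fold or more between the arrays when each gene was represented by the brightest of its probe sets. The background rate was low, since 0.517% of the 13150 detected genes passed 2-fold in either direction, so a count of 0 among 10 genes is near it. ALDH7A1 was the only member past 1.5-fold, at 1.53-fold higher on the miR-941 array, and 2.94% of detected genes passed 1.5-fold on the higher side. Of the 10 genes, 7 read higher on the miR-941 array, 2 lower and 1 the same, and over all detected genes 46.3% read higher, 42.4% lower and 11.3% the same. The differences ran from -0.10 (ALDH18A1) to 0.61 (ALDH7A1) on the log2 scale. Their median was 0.13, against 0.00 over all detected genes, whose differences had an SD of 0.30. ALDH7A1, ALDH6A1, ALDH9A1 and ALDH1B1 lay above 0.21, the 75th percentile of the differences of all detected genes, and no member lay below -0.19, the 25th percentile. Without probe sets whose names end in _x_at or _s_at, 7 members had a value, 3 of them higher and 3 lower, and the median was 0.

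**Figure D1:**
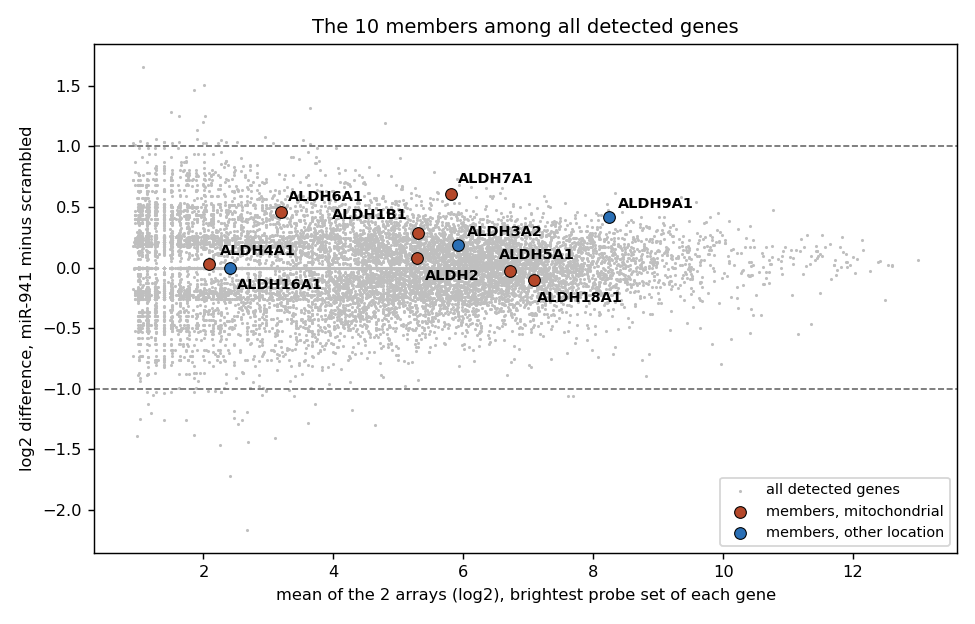
Each grey point is 1 of the 13150 detected genes, with the mean log2 value of its brightest probe set on the horizontal axis and the log2 difference (miR-941 minus scrambled) on the vertical axis; coloured points are the 10 members, mitochondrial in red and others in blue, and dashed lines mark 2-fold. ALDH7A1 (0.61), ALDH6A1 (0.46) and ALDH9A1 (0.42) are the highest members, none reaches a dashed line, and the grey points widen and fall into bands towards the left.

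ALDH7A1, whose enzyme (antiquitin) oxidises aminoadipic semialdehyde in lysine breakdown, had the largest difference of the members, and all of its probe sets read higher on the miR-941 array. Its brightest probe set read 6.11 on the miR-941 array and 5.50 on the scrambled array, a log2 difference of 0.61. Its next probe set read 5.25 on the miR-941 array and 4.77 on the scrambled array, a difference of 0.48. The remaining one read 1.42 on the miR-941 array and 1.16 on the scrambled array, a difference of 0.26 close to the detection level. The 3 differences averaged 0.45 ± 0.18 (SD over 3 probe sets), and probe sets of a gene share 1 hybridisation per array, so this SD leaves out any spread between cultures or precipitates. At least 3 probe sets were detected for 2578 genes, and in 8.42% of these genes every one was higher. Among those, 15 genes, ALDH7A1 itself included, had a median at or above the 0.48 of ALDH7A1. On its brightest probe set, 2.65% of detected genes were at or above ALDH7A1.

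ALDH6A1, the methylmalonate semialdehyde dehydrogenase of valine and thymine breakdown, also read higher, but on dim probe sets. The brightest read 3.42 on the miR-941 array and 2.96 on the scrambled array, a difference of 0.46. An _x_at probe set, a kind that may bind related sequences, read 3.13 on the miR-941 array and 2.06 on the scrambled array, a difference of 1.07 that passes 2-fold. Another read 1.65 on the miR-941 array and 1.32 on the scrambled array. None of the 4 detected probe sets of the gene was lower, and the last was equal at 1.13. Their differences averaged 0.46 ± 0.45 (SD over 4 probe sets), so the SD is nearly as large as the mean. All the probe sets of ALDH6A1 lay at or below 3.37, the 75th percentile of mean level over all probe sets.

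ALDH9A1, which oxidises trimethylaminobutyraldehyde on the way to carnitine, had a single probe set that read well above the detection level. It read 8.45 on the miR-941 array and 8.03 on the scrambled array, a difference of 0.42 or 1.34-fold. Of the detected genes, 7.95% had a difference at least as high, and no other probe set of the gene was there to set beside it.

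**Figure D2:**
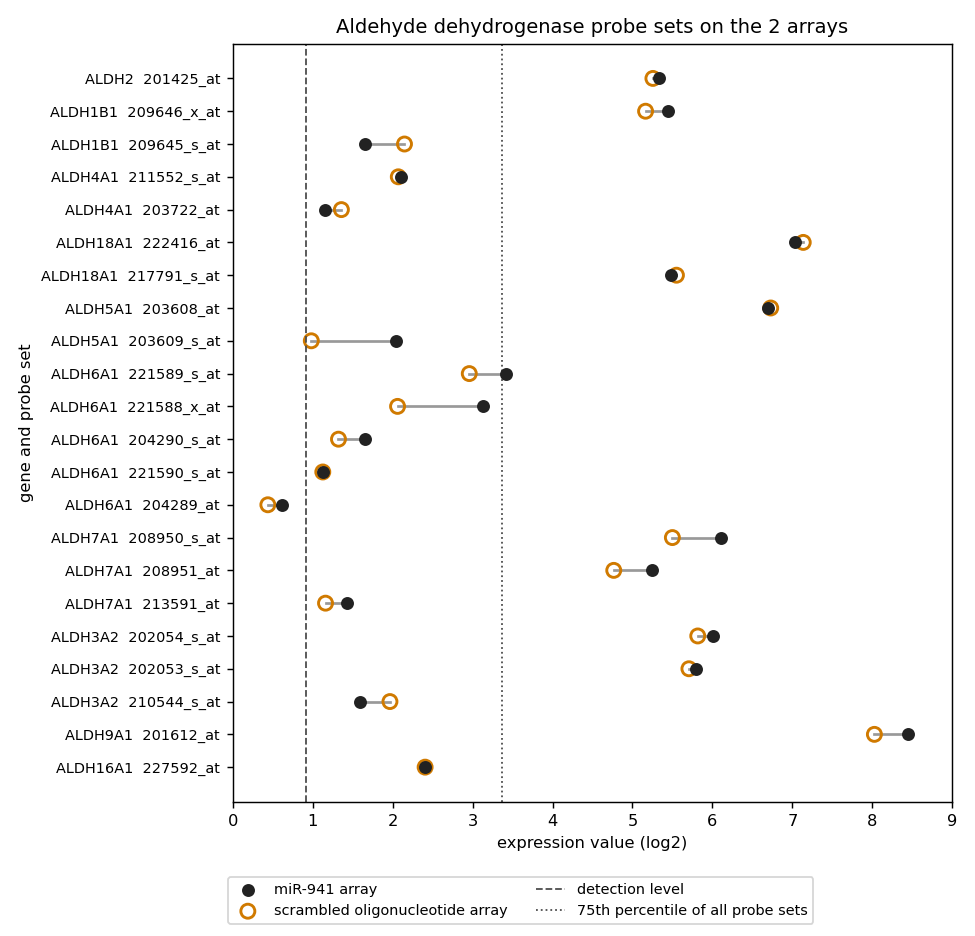
Each row is 1 of the 22 probe sets, with its log2 value on the miR-941 array (filled) and on the scrambled array (open) joined by a line; the dashed line is the detection level of 0.92 and the dotted line the 75th percentile of 3.37. Values of different rows are not comparable as mRNA levels, and the longest lines belong to the ALDH6A1 and ALDH5A1 probe sets at the left, not to the brighter ones.

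The acetaldehyde enzymes of the mitochondrion gave a small difference for one gene and opposite differences for the other. ALDH2 had 1 probe set, at 5.33 on the miR-941 array and 5.26 on the scrambled array, a difference of 0.08. ALDH1B1 read 5.45 on the miR-941 array and 5.16 on the scrambled array on its brighter probe set, an _x_at one, a difference of 0.28. Its dimmer probe set read 1.65 on the miR-941 array and 2.15 on the scrambled array, a difference of -0.50. The direction of ALDH1B1 thus depends on the probe set, and its mean over both was -0.11 ± 0.55 (SD over 2 probe sets).

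The pair that meets at pyrroline carboxylate, the intermediate between glutamate and proline, showed little difference. ALDH18A1 makes this intermediate from glutamate, and its probe sets were both slightly lower on the miR-941 array. The brighter one read 7.03 on the miR-941 array and 7.14 on the scrambled array, a difference of -0.10. The other read 5.48 on the miR-941 array and 5.55 on the scrambled array, a difference of -0.07. These agreed more closely than those of any other member, with an SD of 0.02 over 2 probe sets. ALDH4A1 returns the intermediate to glutamate, and both of its probe sets were dim. The brighter one read 2.10 on the miR-941 array and 2.07 on the scrambled array, and the other 1.15 on the miR-941 array and 1.36 on the scrambled array. The differences of 0.03 and -0.21 pointed in opposite directions.

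ALDH5A1, the succinic semialdehyde dehydrogenase that ends GABA breakdown, had the widest disagreement between probe sets. The brighter one read 6.70 on the miR-941 array and 6.73 on the scrambled array, a difference of -0.03. The dimmer one read 2.05 on the miR-941 array and 0.98 on the scrambled array, a difference of 1.06, with the scrambled reading just above the detection level. With ALDH6A1 it gave the only probe sets of the 10 genes past 2-fold, 2 of 21, both higher, where 0.360% of all detected probe sets with 1 symbol were 2-fold higher and 0.677% of those at or below the 75th percentile. Both probe sets belong to the dim part of the array, and the brighter ALDH5A1 probe set shows no such difference.

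Among the members outside mitochondria, ALDH3A2 had 3 probe sets and ALDH16A1 had 1. ALDH3A2, which clears long-chain fatty aldehydes, read 6.01 on the miR-941 array and 5.82 on the scrambled array on its brightest probe set, a difference of 0.19. A second, nearly as bright, read 5.79 on the miR-941 array and 5.71 on the scrambled array, a difference of 0.08. The dim one read 1.59 on the miR-941 array and 1.97 on the scrambled array, a difference of -0.38, so the brighter probe sets were higher and the dim one lower. ALDH16A1 read 2.41 on both arrays. That equality does not show an unchanged mRNA, since 21.6% of all probe sets were exactly equal between the arrays and 3 probe sets held this very pair of values.

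**Figure D3:**
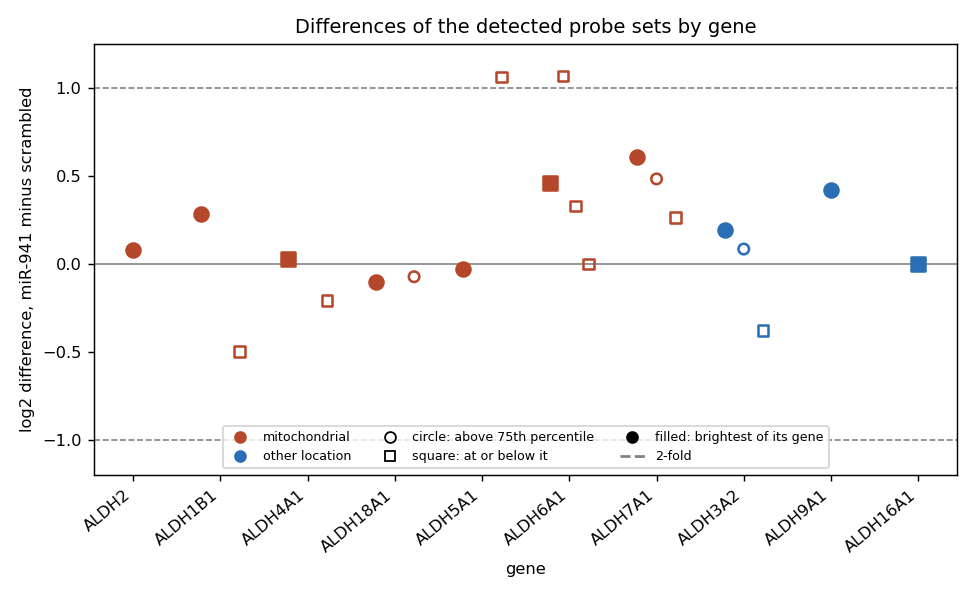
Each point is the log2 difference (miR-941 minus scrambled) of 1 detected probe set, by gene; circles lie above the 75th percentile of level, squares at or below it, filled symbols are the brightest of their gene, and dashed lines mark 2-fold. The probe sets of ALDH7A1 all lie above 0 and those of ALDH18A1 below it, while the 2 points past 2-fold are dim and have other probe sets of the same gene well below them.

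Mitochondrial members and the others did not separate. Among the 7 mitochondrial genes there were 5 higher and 2 lower, and the median difference was 0.08 in a range of -0.10 to 0.61. Of the 3 others 2 were higher and 1 equal, with a median of 0.19 and a range of 0 to 0.42. The ranges overlapped, and with 1 array per group this difference was not tested. With ALDH7A1 counted among the others, the medians were 0.05 for the 6 mitochondrial genes and 0.30 for the 4 others.

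The differences of the members spread less over bright probe sets than over dim ones. At least 2 probe sets were detected for 7 members. In 2 of these genes every probe set lay on one side of 0 (ALDH7A1 above it, ALDH18A1 below), and in 4 they lay on both sides. The remaining one was ALDH6A1, with 3 higher and 1 equal. The same counts over all genes with at least 2 detected probe sets are not given here, so these describe the members only. The 10 member probe sets above the 75th percentile had differences between -0.10 and 0.61 with an SD of 0.25, and 7 of them were higher, where 45.5% of all probe sets of that level and 1 symbol were. The 11 detected ones at or below it ran from -0.50 to 1.07 with an SD of 0.52. Over all probe sets with 1 symbol the corresponding SDs were 0.27 above the 75th percentile and 0.38 at or below it. The pooled SD within a gene was 0.40 over the 7 members for the 2 brightest probe sets, against 0.29 over 6106 genes.

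The rest of the family, fixed as a list of 9 genes, held 6 that were detected. The miR-941 array read higher for 5 of these and lower for 1 (median difference 0.27), where 46.3% of all detected genes read higher. ALDH1A2, which makes retinoic acid from retinaldehyde, read 6.27 on the miR-941 array and 5.92 on the scrambled array, a difference of 0.35, and its other probe set was below the detection level. ALDH1L2, a mitochondrial enzyme of folate metabolism, had a difference of 0.17 on its brightest probe set and a dimmer probe set that was lower. The remaining detected genes were dim on both arrays. ALDH1A3 had a difference of 0.44, ALDH3B1 0.28, ALDH8A1 0.26 and ALDH1L1 -0.68, and none passed 2-fold. ALDH1A3 read 1.34 on the miR-941 array and 0.91 on the scrambled array. The scrambled reading was below the detection level, so ALDH1A3 passed only through the array on which it was higher. The 2 detected probe sets of ALDH3B1 lay on both sides of 0 (median 0.03). ALDH1A1, ALDH3A1 and ALDH3B2 were below the detection level.

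Genes that act beside the members were taken from 7 lists of 64 genes, of which 59 had a probe set with 1 symbol and 45 were detected. None of the 45 passed 2-fold. The miR-941 array read higher for 26 (57.8%, against 46.3% of all detected genes), lower for 13 and the same for 6, and the median was 0.08. Their differences had an SD of 0.23, against 0.24 over the 10 members.

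**Figure D4:**
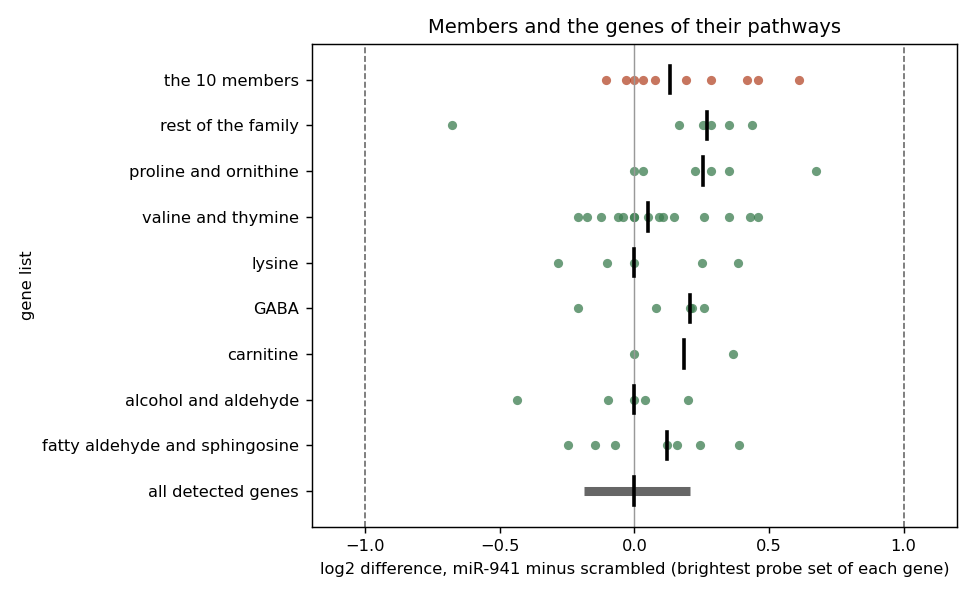
Each point is the log2 difference (miR-941 minus scrambled) of 1 detected gene on its brightest probe set, by list; black bars are medians, and for all 13150 detected genes the grey bar spans the 25th to the 75th percentile, from -0.19 to 0.21. No gene of any list reaches the dashed lines at 2-fold, and the medians run from 0 to 0.27.

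In proline and ornithine metabolism, which ALDH18A1 and ALDH4A1 serve, 5 of 6 detected genes were higher and 1 equal (median 0.25). PYCR1, which reduces the pyrroline intermediate to proline, had a difference of 0.35 on 1 probe set, while ALDH18A1 one step earlier had -0.10. PRODH2 had 0.68, but its 2 probe sets differed in opposite directions (median -0.05). GLUD1, the glutamate dehydrogenase, had 0.03, with its 2 probe sets on both sides of 0 (median -0.03). ARG2, the mitochondrial arginase, read 5.07 on both arrays on its brightest probe set.

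In the breakdown of valine and thymine, beside ALDH6A1, 8 of 15 detected genes were higher, 5 lower and 2 equal (median 0.05). MMUT, the mutase that carries propionate carbon into the citric acid cycle, had 0.43 with both probe sets higher. UPB1, of pyrimidine breakdown, had 0.46 on 1 dim probe set. HIBADH, which makes the semialdehyde that ALDH6A1 uses, had -0.18 with all 3 probe sets lower. BCKDHB, a subunit of the branched-chain ketoacid dehydrogenase, had -0.21, with 1 of its 2 probe sets lower and 1 equal (median -0.11). ALDH6A1 and the enzyme just before it in valine breakdown thus read in opposite directions on these arrays. The difference of HIBADH was smaller than the pooled SD within a gene, 0.29 over 6106 genes, and the probe sets of ALDH6A1 were dim.

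In lysine breakdown, where ALDH7A1 works, 2 of 5 detected genes were higher, 2 lower and 1 equal (median 0). GCDH, the glutaryl-CoA dehydrogenase, had 0.39, but of its 2 detected probe sets 1 was higher and 1 equal (median 0.19). DLST, a subunit shared by ketoacid dehydrogenases, had 0.25 on 1 probe set. AADAT, the aminotransferase of the step after ALDH7A1, had -0.29 on 1 probe set, and DHTKD1, which acts on the product of AADAT, had -0.10. The 2 probe sets of DHTKD1 lay on both sides of 0 (median -0.03). AASS, the enzyme that makes the substrate of ALDH7A1, read 3.34 on both arrays on its brighter probe set. On the probe sets that stand for them, AASS was thus equal and AADAT lower, while GCDH and DLST were higher. The differences of AADAT, DHTKD1 and DLST were no larger than the pooled SD within a gene, 0.29 over 6106 genes.

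Around GABA and ALDH5A1, 4 of 5 detected genes were higher and 1 lower (median 0.20). SUCLG2, a subunit of succinyl-CoA ligase, had 0.26 with all 3 detected probe sets higher. ABAT, the transaminase that supplies ALDH5A1, was dim and had 0.21, but of its 2 detected probe sets 1 was higher and 1 equal (median 0.11). GAD1, which makes GABA, had -0.21, but of its 3 detected probe sets 1 was higher, 1 lower and 1 equal (median 0). SUCLG1 had 0.08. Of the carnitine list, SLC22A5, the carnitine transporter, had 0.37 with both probe sets higher, and TMLHE, which starts carnitine synthesis, was equal on its brightest probe set. BBOX1, the last enzyme of that synthesis, was below the detection level.

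In alcohol and aldehyde metabolism, 5 of the 12 genes on the array were detected, 2 higher, 2 lower and 1 equal (median 0). The classical alcohol dehydrogenases ADH1A, ADH1B, ADH1C, ADH4, ADH6 and ADH7 were all below the detection level. ADH5, which acts on formaldehyde bound to glutathione, had 0.04 on its brighter probe set, and both of its probe sets were higher (median 0.21). ACSS2, which activates acetate, had 0.20, catalase (CAT) -0.10, and the dim CYP2E1 -0.44. The 2 detected probe sets of CAT lay on both sides of 0 (median 0.07), and of the 2 of CYP2E1 1 was lower and 1 equal (median -0.22). In fatty aldehyde and sphingosine metabolism, beside ALDH3A2, 4 of 7 detected genes were higher and 3 lower (median 0.12). PHYH, of peroxisomal alpha-oxidation, had 0.39, the sphingosine kinase SPHK1 0.24, and the fatty acyl-CoA reductases FAR1 and FAR2 -0.15 and -0.25. Of the 2 detected probe sets of FAR1 1 was lower and 1 equal (median -0.07), and those of FAR2 lay on both sides of 0.

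Of 9 kidney, neural and filament genes that mark the 293T lineage, 7 were detected, 4 higher and 3 lower, while KRT8 and LHX1 were below the detection level. The differences were 0.44 for STMN1, 0.39 for NEFL, 0.37 for PAX2, 0.24 for KRT18, -0.12 for VIM, -0.26 for NEFM and -0.59 for INA. The kidney gene PAX2 read 1.23 on the miR-941 array and 0.86 on the scrambled array, so only the miR-941 reading was above the detection level. Of 12 markers of other cell types 6 were detected, and the miR-941 array read higher for 3 of them and lower for 3. The differences were 0.73 for VWF, 0.59 for HBB (on an _x_at probe set) and 0.44 for PECAM1, and -0.24 for COL1A1, -0.37 for KRT5 and -0.40 for APOA1. HBB was bright, at 7.54 on the miR-941 array and 6.95 on the scrambled array, with 3 of 4 probe sets higher. The others were dim. VWF read 1.39 on the miR-941 array and 0.66 on the scrambled array, and PECAM1 1.37 and 0.93. The scrambled reading of VWF was below the detection level, as was the miR-941 reading of APOA1 (0.80, against 1.21 on the scrambled array). The other detected probe set of VWF was equal and that of PECAM1 lower. PTPRC, CD3E, ALB, COL3A1, ADIPOQ and MYH7 were below the detection level. The 5′ control of the actin mRNA differed by -0.66 and its 3′ control by -0.04, and for GAPDH they differed by -0.19 and 0.05. The part of these in the differences of the aldehyde dehydrogenases was not tested.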

How the data were processed

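RNA from immunoprecipitates of 293T cells was measured on 2 oligonucleotide arrays, 1 per group. RMA in R was the authors' method for these values, according to the series' design text, and each deposited number was taken here as a log2 value of 1 probe set. RMA, affy and MAS5 are named without versions or roles, per the submitters' processing notes. Scale and centring are not given in the sources used here. Values reached 13.7, above 11.1, the natural logarithm of the highest 16-bit scanner reading. Array medians were 0.98 (miR-941) and 0.92 (scrambled).

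Gene names came from the platform annotation, in which 41091 of 54675 probe sets had 1 symbol. Entrez identifiers gave the current RefSeq symbol (GRCh38.p14) for 41037 of these. A gene was represented by its brightest detected probe set. Differences are the miR-941 array minus the scrambled array. Values were tabulated with pandas 2.3.3 in Python 3.11.15, and the smoothing used statsmodels 0.14.6. Members and lists were chosen with earlier results of these data known. Named genes are all members, the rest of the family, and the 2 highest and 2 lowest detected genes of each pathway list, and AASS, BBOX1 and the alcohol dehydrogenases were named after their values were seen. Alternatives were other ways to combine probe sets, other level filters, quantile normalization, a loess trend (span 0.3) removed, a 1.5-fold threshold and another class for ALDH7A1.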

Additional observations from a re-analysis of the deposited data

How the results depend on the processing

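No paired analysis was possible because a group is a single array, and leaving out an array would leave no comparison. Across 11 alternatives, and 1 (without _x_at probe sets) chosen after seeing the data, 119 of 125 values moved by less than the within-gene SD of 0.29 or kept the same count. Many of these could not move. The level filters keep the brightest probe set of a gene, and raising low values to the detection level leaves the detected member probe sets as they were. ALDH2, ALDH9A1 and ALDH16A1 had 1 probe set each, so combining probe sets returned the same value. The count of 119 is therefore no measure of stability. At 1.5-fold instead of 2-fold the count of members was 1 in place of 0, by construction of the threshold. ALDH7A1 ran from 0.45 to 0.64, ALDH6A1 from 0.39 to 0.47 and ALDH9A1 from 0.40 to 0.42, all above 0 wherever they had a value. ALDH1B1 was -0.11 as a mean or median over probe sets and -0.50 without _x_at probe sets, and ALDH5A1 was 0.52 as a mean or median. ALDH4A1 was -0.09 as a mean or median and -0.21 without _x_at and _s_at probe sets, and ALDH3A2 was -0.04 as a mean. Of the 10 members, 7 higher and 2 lower on the brightest probe set, 5 were higher and 4 lower as a mean. The median of the members ran from 0 to 0.19, that of the mitochondrial members from -0.03 to 0.11 and that of the others from 0 to 0.30. ALDH16A1, equal as deposited, was slightly below 0 after quantile normalization and with the loess trend removed.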

Other observations

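The differences take repeated values. To 6 decimals, the -0.21 of the dimmer ALDH4A1 probe set was the difference of 1141 probe sets, the 0.26 of the dimmest ALDH7A1 probe set that of 236, and the 0.46 of the brightest ALDH6A1 probe set that of 27, UPB1 among them. Of the 11 detected member probe sets at or below the 75th percentile of level, 10 shared their difference with at least 1 other probe set, as did 96.0% of all such probe sets with 1 symbol. Above the 75th percentile it was 5 of 10, against 63.4% over all. The difference of ALDH9A1 was held by no other probe set, and that of the brightest ALDH7A1 probe set by 2 in all.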
